A study of Mus musculus with 6 samples.

Results

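Fatty acids are a main fuel of resting and endurance-working muscle. They enter the fibre through membrane transporters, are activated to acyl-CoA, pass into mitochondria on the carnitine shuttle and are shortened step by step in the beta oxidation spiral, whose electrons reach the respiratory chain through the electron transfer flavoprotein. Nuclear receptors of the PPAR family, which are activated by fatty acids, switch on many genes of this route, and oxidative fibres (slow and fast type 2A) hold more of it than glycolytic fibres.

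The 34 genes described here cover uptake, activation, the carnitine shuttle, beta oxidation, thioesterases and uncoupling proteins, lipid droplet coats and PPAR regulators. They were chosen by name for these roles, and each name matched 1 row of the deposited table of 54532 genes. All 34 passed the low-count filter, which left 14867 genes to test.

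RNA of mouse muscle was sequenced in 6 libraries, 3 per group. Igf2 encodes insulin-like growth factor 2, and the series asks what its loss does to muscle mass and function. All animals were on a C57BL/6 background with both Igf2 alleles floxed around exon 2 (Igf2f/f). In the knockouts (Mck-Cre+; Igf2f/f, named Igf2 cKO) Cre was driven by the promoter of muscle creatine kinase, which acts in striated fibres and not in the other cells of the tissue. The controls were Mck-Cre-; Igf2f/f littermates. Which muscle was taken, and the animals' age and sex, are not given in the labels, nor is any pooling of animals. The labels do not say that each library is a separate animal, so the p-values of the group tests below measure only the spread between these libraries. The p-values in the authors' deposited table come from comparisons of 1 library with 1 control and cannot measure that spread. Where 3 values are given for a group, they stand in the order of replicates 1, 2 and 3.

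Total counts lay between 16184371 and 17905203 per library. The targeted gene was near the floor in both groups, with 60, 43 and 39 counts of Igf2 in the controls and 33, 37 and 42 in the knockouts. A count over the whole gene does not separate the floxed exon and is no check of genotype. Of 12 genes that define skeletal muscle, 11 lay at or above 100.1 FPKM in every library, up to a mean of 23239 FPKM for Acta1 (FPKM, the authors' count scaled by listed gene length and library size). Tnnc2, fast troponin C, was listed at a mean of 0.50 FPKM, and 74.0% of its exonic bases are also annotated to Ube2c on the opposite strand. Across all genes 37 of 14867 (0.249%; 0.182% higher and 0.0673% lower in Igf2 cKO muscle) were called at an adjusted p under 0.05 by edgeR's quasi-likelihood test with Benjamini-Hochberg adjustment.

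None of the fatty acid genes was among those calls. By edgeR 0 of 34 members passed, and by limma-voom 0, where it called 0.229% of all genes. DESeq2 called 1 (Cpt1a) and 1.38% of all genes, and edgeR without the low-count filter called 3 (Cpt1a, Ucp3 and Acot2) and 1.07% of all genes. The series' own rule, which asks for a log2 fold change beyond 1 in either direction and p below 0.05 before adjustment, took Acot2 and 1.58% of all genes. At an unadjusted p under 0.05 edgeR took 3 members, Cpt1a, Ucp3 and Acot2, all lower in Igf2 cKO muscle, beside 9.93% of all genes tested, 4.82% lower and 5.11% higher. In 15.5% of all genes tested the CPM (counts scaled to TMM library sizes) of the groups did not overlap. They included Cpt1a and Ucp3 in the lower direction, with 7.67% of all genes, and Ppard in the higher direction, with 7.83%. The median log2 fold change of the members, Igf2 cKO over control, was -0.04, with 23 members below 0 and 11 above, beside 0.00 over all genes tested. The 95% intervals of 31 members included 0. The intervals reached 0.54 on the log2 scale to either side of the estimate for the median member. They reached 0.23 for the narrowest and 1.38 for the widest, so changes of that size could be missed. Larger ones could be missed too, since Cpt1a at -0.82 and Ucp3 at -0.93 had intervals without 0 and were not called. Fewer cells or fibres of a type and less RNA per cell cannot be told apart in these bulk samples.

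**Figure D1:**
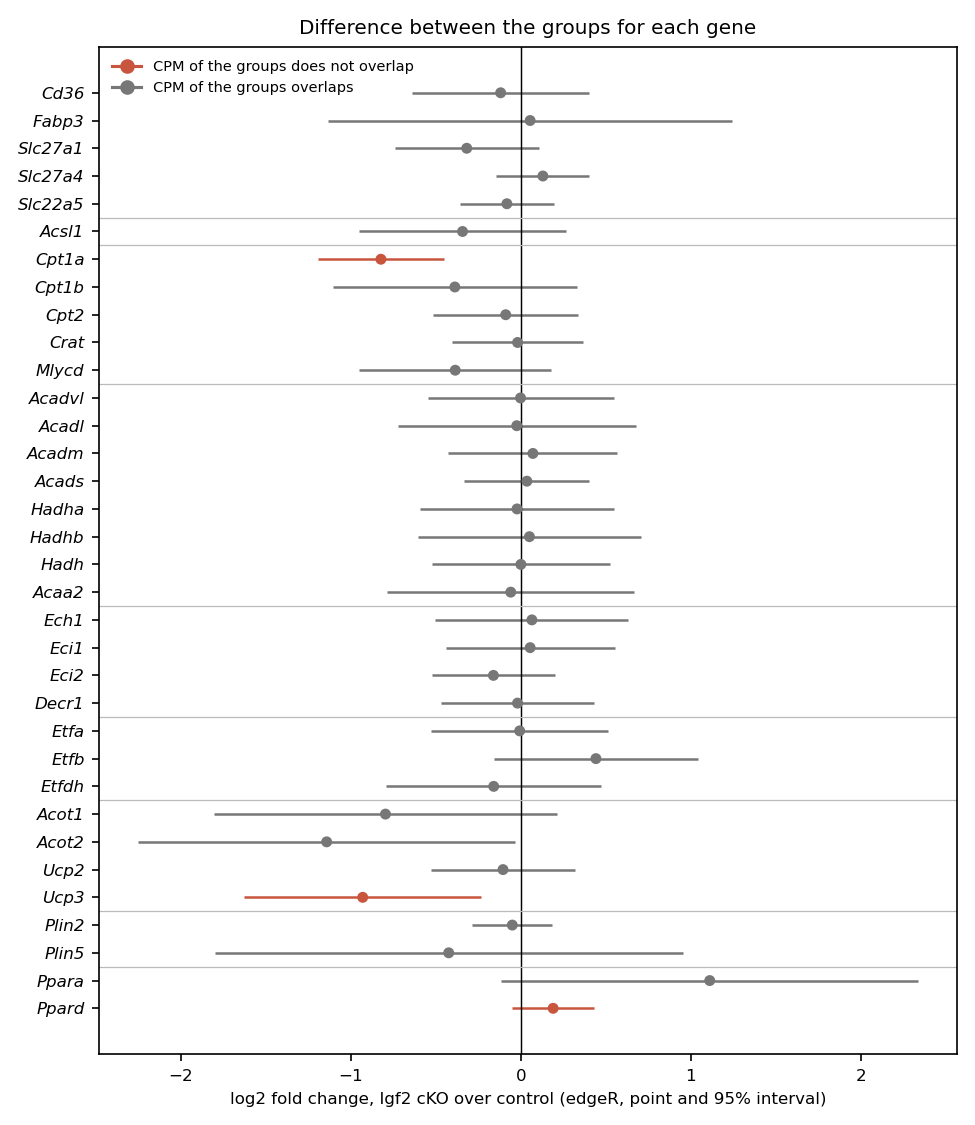
Log2 fold change of each of the 34 genes, Igf2 cKO over control, from edgeR (point) with its 95% interval (line), 3 libraries per group. Horizontal lines separate roles, and red marks the 3 genes (Cpt1a, Ucp3, Ppard) whose CPM did not overlap between the groups.

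The members varied more between Igf2 cKO libraries than between controls, and mostly in the same order. Igf2 cKO replicate 2 was the highest of the 6 libraries for 24 of 34 members, and Igf2 cKO replicate 1 the lowest for 26. Both held for 19 members (55.9%), against 5.27% of all genes tested. The median coefficient of variation of a member was 15.9% among controls and 32.6% among Igf2 cKO libraries, while over all genes tested it was 11.9% and 12.6%. It was larger in the Igf2 cKO group for 31 of 34 members and for 52.8% of all genes. Replicate 2 stood above replicate 1 of the Igf2 cKO group by a median of 1.79-fold, and by up to 7.09-fold for Plin5. Among controls the spread was smaller, but there too an order was shared, with replicate 1 the lowest of the 3 for 28 members. The share of all genes with that control order was not computed. In log2 CPM minus the control mean, the median member stood at -0.25, 0.09 and 0.12 in the controls. In the knockouts it stood at -0.46, 0.38 and -0.21. These are descriptions of single libraries, with no test.

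**Figure D2:**
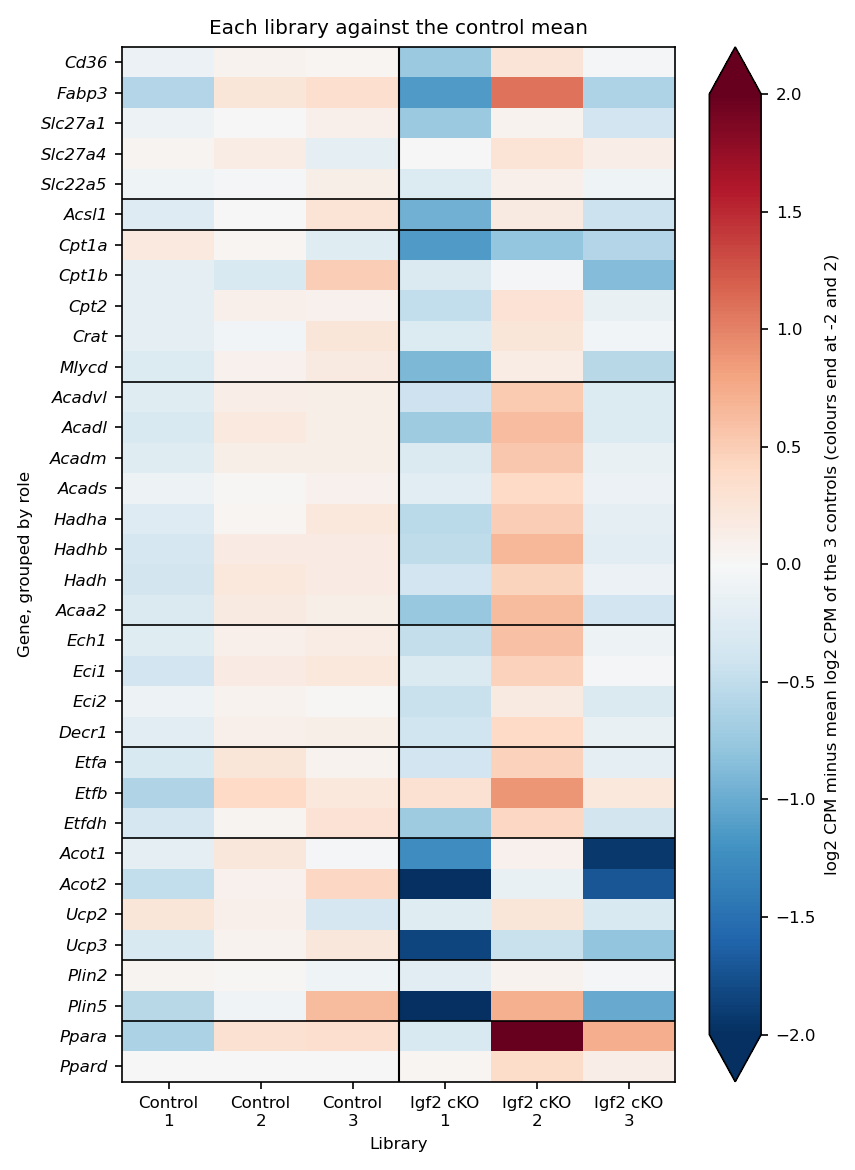
Each gene's log2 CPM in each library minus the mean log2 CPM of the 3 controls, with genes in rows grouped by role and libraries in columns. The column of Igf2 cKO replicate 2 is mostly red (24 genes at their highest) and that of replicate 1 mostly blue (26 genes at their lowest).

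The authors' deposited table compares each Igf2 cKO library with the control of the same number, and there the members pointed opposite ways. Per the authors' deposited table, 30 members were below 0 for replicate 1 (median log2 fold change -0.28), 30 were above 0 for replicate 2 (median 0.29), and 28 were below 0 for replicate 3 (median -0.30). The authors' deposited table called 1, 1 and 2 members at an adjusted p under 0.05 in these comparisons, where it called 0.448%, 0.346% and 0.716% of all genes listed. They were Acot2 at -1.84 in replicate 1, Ppara at 1.81 in replicate 2, and Acot2 at -2.12 with Plin5 at -1.63 in replicate 3 of the authors' deposited table. Each of these comparisons had 1 library per group, so its p-values hold no measure of the spread between replicates. These calls describe pairs of single libraries and cannot show a difference between the groups.

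Markers of slow and of fast 2A and 2X fibres were also highest in Igf2 cKO replicate 2. Most of the 12 skeletal muscle markers, which include fast fibre forms such as Myh4, had that library as their lowest. All 10 slow fibre markers (from Myh7b at a mean of 0.58 FPKM to Myl3 at 123 FPKM) were highest in Igf2 cKO replicate 2. Igf2 cKO replicate 1 was the lowest library for 6 of these 10 and replicate 3 for 4. The summed CPM of the 10 was 1613, 1439.8 and 1483 in the controls and 582, 2710.1 and 596 in the knockouts. Control replicate 1 thus had the highest control sum of the slow markers, while it was the lowest control for 28 members. It was also the lowest control in both sums given next. Myh2 and Myh1, the myosins of fast 2A and 2X fibres, summed to 3424, 4347 and 3868 CPM in controls. In the knockouts they summed to 2777, 7813 and 3858 CPM. The 11 mitochondrial content markers (from Tfam at 10.3 to Atp5a1 at 713 FPKM) had narrower sums. These were 6364, 7519 and 7717 CPM in controls and 6142, 8558 and 6690.0 CPM in the knockouts. Yet 9 of these 11 were highest in Igf2 cKO replicate 2 and 7 were lowest in replicate 1, so the pattern was not particular to the members. Over all genes tested the shares were 20.5% and 18.1%. Of the 12 skeletal muscle markers, 11 were lowest in Igf2 cKO replicate 2, with sums of 149921 to 176871 CPM in controls and of 153477, 114502 and 143947 CPM in the knockouts. Myh4, the myosin of fast 2B fibres, had 35479, 33158 and 46329 CPM in controls and 32994, 17313 and 28676 CPM in the knockouts. Its range over the 6 libraries was 2.68-fold, beside 1.23-fold for Acta1. Actn3 and Pvalb, also known from fast fibres, were highest in Igf2 cKO replicate 1 and lowest in replicate 2. They were the only 2 of the 12 that were highest in Igf2 cKO replicate 1, while 8 were highest in control replicate 3. In each of these 4 lists 0 genes were called. The part of fibre makeup in the spread of the members was not tested.

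Without Igf2 cKO replicate 2, the median log2 fold change of the members was -0.35, 30 of 34 were below 0, and 14 had an unadjusted p under 0.05, all lower, where 5.55% of all genes were lower by that measure in the same fit. Acot2 alone was called then, with 0.448% of all genes called. Without Igf2 cKO replicate 1 the median was 0.13, 24 members were above 0 and 0 were called, with 0.257% of all genes called. Single controls moved the balance too. Without control replicate 3 the median was 0.0084, near the 0.0087 of all genes in that fit, with 17 members below 0 and 17 above. Without control replicate 1 it was -0.15, with 29 below 0, and without control replicate 2 it was -0.03, with 18 below 0. The direction of the members as a group therefore depended on single Igf2 cKO libraries, and single controls changed how many members lay below 0. With a slow fibre score as a covariate, chosen after the data had been seen, the median was 0.09 and 0 members were called, against 0.471% of all genes.

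**Figure D3:**
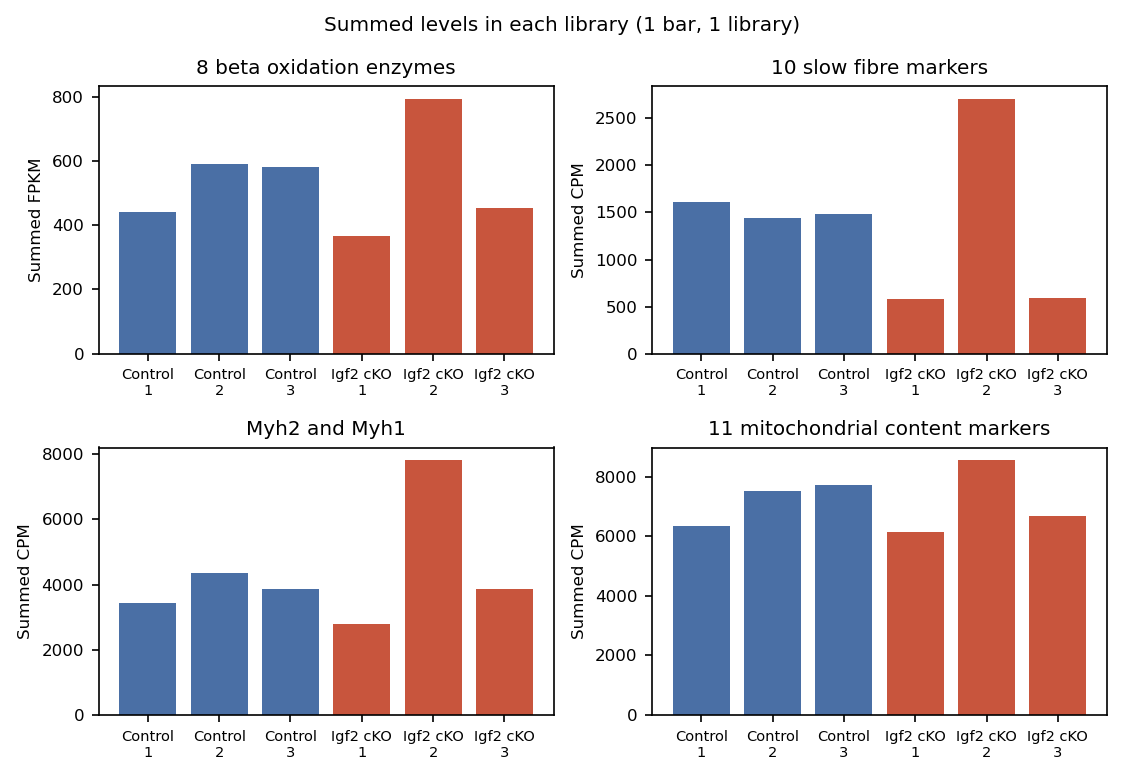
Summed level in each library (1 bar, 1 library) of the 8 beta oxidation enzymes in FPKM, and of 10 slow fibre markers, Myh2 with Myh1, and 11 mitochondrial content markers in CPM. Igf2 cKO replicate 2 has the tallest bar in each panel, and Igf2 cKO replicate 1 the shortest.

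On the FPKM scale, which allows for gene length, Fabp3 and Cd36 stood at the top, while the other uptake genes were far lower (Slc27a1 at a mean of 22.4, Slc22a5 at 6.23 and Slc27a4 at 5.16 FPKM). Fabp3, the heart and muscle fatty acid binding protein that carries fatty acids through the cytosol, had the highest mean of the members at 627 FPKM, followed by the membrane transporter Cd36 at 189 FPKM. Acaa2, Acadl and Eci1 came next at 129, 124 and 104 FPKM, with Igf2 cKO SDs of 66.1, 60.0 and 29.3 FPKM that span their differences. At the low end Acot1 was at 0.95 and Cpt1b at 0.89 FPKM. The FPKM of Cpt1a and Eci1 use listed lengths of 4300 and 1091 bases, which are 7642 and 2127 exonic bases in GENCODE M21, so their rank depends on the annotation.

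**Figure D4:**
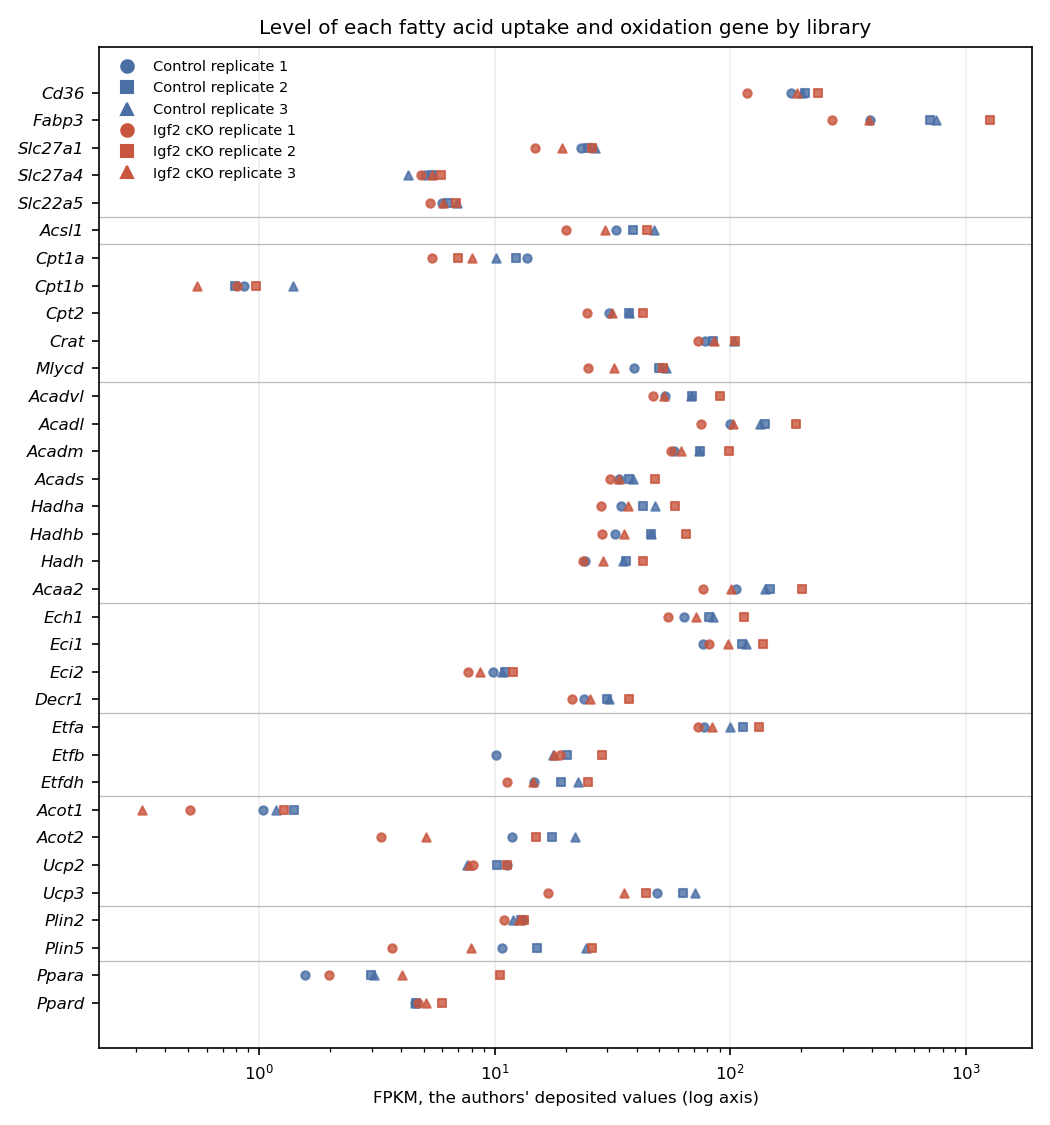
FPKM as deposited (log axis) of each of the 34 genes in each of the 6 libraries, with lines between roles. Fabp3 spans 269 to 1261 FPKM, the highest of all, and Cpt1b and Acot1 lie around 1 FPKM.

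Among the uptake genes, Cd36, which brings fatty acids across the plasma membrane of fibres and of capillary endothelium, had 654, 749 and 731 CPM in the controls. The knockouts had 425, 848 and 692 CPM. The groups overlapped, with Igf2 cKO replicate 1 well under the controls (log2 fold change -0.12 ± 0.23 SE, adjusted p = 0.916 by edgeR). Of 11 endothelial markers (from Emcn at 6.91 to Cdh5 at 91.6 FPKM), 9 were also lowest in Igf2 cKO replicate 1, and their summed CPM lay between 1801 and 1985 in controls and at 1332, 1977 and 1829 in the knockouts. Their part in the Cd36 values was not tested.

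Fabp3 had 326, 581 and 619.7 CPM in controls and 224, 1044 and 319 CPM in Igf2 cKO libraries. The highest and the lowest of the 6 values both came from Igf2 cKO muscle (0.05 ± 0.52 SE, 95% interval -1.13 to 1.24). Of its exonic bases 19.6% are also annotated to genes on the opposite strand, and the sources used here do not give the strand setting of the counts. Slc27a1 (FATP1), a transporter that also activates long-chain fatty acids, had 137, 146 and 156 CPM in controls and 87.0, 152 and 112 CPM in Igf2 cKO libraries (-0.32 ± 0.19 SE). Its relative Slc27a4 (FATP4) stayed between 19.0 and 26.2 CPM in all 6 libraries, and Slc22a5 (OCTN2), which imports carnitine, between 16.4 and 21.3 CPM. These last genes had the narrowest ranges of the uptake group.

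Acsl1, the main long-chain acyl-CoA synthetase of muscle, had 344, 409 and 499 CPM in controls and 212, 467 and 308 CPM in Igf2 cKO libraries (-0.34 ± 0.27 SE, adjusted p = 0.744 by edgeR). Igf2 cKO replicates 1 and 3 were under every control and replicate 2 was within them.

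In the carnitine shuttle, Cpt1a stood apart from the order described above. Cpt1a encodes the liver-type carnitine palmitoyltransferase 1, which makes acylcarnitine at the outer mitochondrial membrane and is inhibited by malonyl-CoA. The gene lies on chromosome 19 (3323301 to 3385732, plus strand, GRCm38). It had 59.2, 53.2 and 43.7 CPM in the controls, a mean of 52.1 ± 7.78 (SD, n = 3). The knockouts had 23.5, 30.3 and 34.6 CPM, a mean of 29.4 ± 5.596 (SD, n = 3). All Igf2 cKO libraries were under all controls, and replicate 2 was not the highest of them. By edgeR this was -0.82 ± 0.16 on the log2 scale (SE, 95% interval -1.19 to -0.45), and its adjusted p = 0.13 missed the threshold.

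The call on Cpt1a depended on the tool and on the low-count filter. DESeq2 gave an adjusted p of 0.00198 and edgeR without the low-count filter 0.000725. The fold change was negative in all 17 alternatives, between -0.96 and -0.68, with an adjusted p from 0.000725 to 0.356.

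Cpt1b, the muscle-type carnitine palmitoyltransferase 1 and the main form known in fibres, was listed at only 2.92, 2.69 and 4.71 CPM in controls and 2.73, 3.28 and 1.83 CPM in Igf2 cKO libraries. Of its 3372 exonic bases on chromosome 15 (89416405 to 89425863, minus strand), 2744 (81.4%) are also annotated on the same strand to Gm44502, which had 2 counts over all 6 libraries. The sources used here do not say how reads in shared bases were treated, so the level of Cpt1b, and its order against Cpt1a, cannot be read from these counts.

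The inner-membrane enzyme Cpt2, which returns acylcarnitine to acyl-CoA, had a log2 fold change of -0.09 ± 0.19 (SE), and Crat, which buffers short-chain acyl groups as acylcarnitines, -0.02 ± 0.17 (SE). Both were highest in Igf2 cKO replicate 2 and lowest in replicate 1. Mlycd, which degrades malonyl-CoA and so relieves the inhibition of carnitine palmitoyltransferase 1, had 116, 149 and 159 CPM in controls and 74.9, 155 and 94.95 CPM in Igf2 cKO libraries (-0.39 ± 0.25 SE, adjusted p = 0.672 by edgeR). Igf2 cKO replicates 1 and 3 were again under every control.

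The 8 enzymes of the spiral gave the clearest example of groups with like means and unlike spreads. Their summed FPKM was 441, 592 and 583 in the controls and 366, 795 and 453 in the knockouts. The 8 log2 fold changes all lay between -0.06 and 0.07, with intervals from -0.79 at the lowest to 0.71 at the highest. Every one of them was highest in Igf2 cKO replicate 2 and lowest in replicate 1.

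Of the acyl-CoA dehydrogenases, which take the first step for different chain lengths, Acadl (long chain) had 202, 283 and 269 CPM in controls and 152, 383 and 207 CPM in Igf2 cKO libraries. Acadm (medium chain) had 228, 293 and 291 CPM in controls and 220.5, 390 and 242 CPM in Igf2 cKO libraries. Acads (short chain) spread less, from 70.8 CPM in Igf2 cKO replicate 1 to 109 CPM in replicate 2. All these groups overlapped. Acadvl (very long chain) went from 127 to 245 CPM in the same libraries, and 42.9% of its exonic bases are also annotated to Dvl2 on the opposite strand, which had between 150 and 238 counts.

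Hadha and Hadhb, the subunits of the trifunctional protein that completes the spiral for long chains, lie beside each other on chromosome 5 and are transcribed away from each other. Hadha had 303, 373 and 419.8 CPM in controls and 248, 511 and 320.3 CPM in Igf2 cKO libraries. Hadhb had 216, 306 and 304 CPM in controls and 191, 432 and 233 CPM in Igf2 cKO libraries. The pair kept the same order of the Igf2 cKO libraries. Hadh, the short-chain hydroxyacyl-CoA dehydrogenase, had a log2 fold change of 0.00 ± 0.23 (SE), and Acaa2, the mitochondrial thiolase that releases acetyl-CoA, of -0.06 ± 0.32 (SE). Acaa2 showed a 2.61-fold range over the 6 libraries, the widest of the spiral enzymes.

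The auxiliary enzymes that let unsaturated fatty acids enter the spiral behaved like it. Ech1, a dienoyl-CoA isomerase, ran from 125 CPM in Igf2 cKO replicate 1 to 262 CPM in replicate 2, Decr1, the dienoyl-CoA reductase, from 83.2 to 144 CPM, and Eci2, an enoyl-CoA isomerase, from 43.0 to 66.6 CPM in those libraries. Eci1, the other enoyl-CoA isomerase, was lowest in control replicate 1 at 84.2 CPM and highest in Igf2 cKO replicate 2 at 152 CPM. The 4 log2 fold changes lay between -0.16 and 0.07.

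The electron transfer flavoprotein subunit Etfa and the oxidoreductase Etfdh, which hands its electrons to ubiquinone, had log2 fold changes of -0.01 ± 0.23 and -0.16 ± 0.28 (SE). Etfdh had 111, 145 and 171 CPM in controls and 85.6, 188 and 109 CPM in Igf2 cKO libraries, so the groups overlapped. Etfb, the partner subunit of Etfa, was at 0.44 ± 0.26 (SE) and only 11.9 to 33.3 CPM, with 58.2% of its exonic bases also annotated on the same strand to Gm45233 or Mir7051. Its counts are uncertain for the same reason as those of Cpt1b.

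Acot2 and Ucp3 had the lowest log2 fold changes of the members, followed by Cpt1a and Acot1. Ucp3, the uncoupling protein of muscle mitochondria, whose RNA is known to rise with fatty acid supply, lies on chromosome 7 (100472990 to 100486432, plus strand). It had 155, 199 and 224 CPM in the controls, a mean of 192 ± 34.8 (SD, n = 3). The knockouts had 53.3, 139 and 111 CPM, a mean of 101 ± 43.6 (SD, n = 3). Every Igf2 cKO library was under every control. By edgeR this was -0.93 ± 0.31 on the log2 scale (SE, 95% interval -1.63 to -0.23), with an adjusted p = 0.352.

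Ucp3 was called by edgeR without the low-count filter (adjusted p = 0.0107) and in 0 other alternatives, over which its fold change ran from -1.23 to -0.62. Its neighbour Ucp2, an uncoupling protein of many tissues, overlapped between the groups, at 79.8, 72.1 and 53.5 CPM in controls and 57.2, 79.5 and 54.4 CPM in Igf2 cKO libraries (-0.10 ± 0.19 SE).

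Acot2, the mitochondrial acyl-CoA thioesterase that frees fatty acids from long-chain acyl-CoA, had 26.2, 38.8 and 48.7 CPM in controls and 7.31, 33.1 and 11.2 CPM in Igf2 cKO libraries. Igf2 cKO replicates 1 and 3 were under every control, while replicate 2 was among them. By edgeR this was -1.14 ± 0.49 on the log2 scale (SE, 95% interval -2.25 to -0.03, adjusted p = 0.49). Without Igf2 cKO replicate 2 it was -2.03 (adjusted p = 0.0243). Acot1, its cytosolic relative, had 4.11, 5.54 and 4.64 CPM in controls and 2.01, 5.01 and 1.24 CPM in Igf2 cKO libraries (-0.80 ± 0.44 SE).

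Acot1 and Acot2 are near copies on chromosome 12 (84009490 to 84018371 and 83987861 to 83993873, both plus strand, 15617 bases apart), so their counts can share reads. Over 1236 aligned coding bases of the GENCODE M21 transcripts 95.3% were identical, and 31.0% of all 100-base windows of the Acot1 coding sequence occur whole in that of Acot2. The start of the Acot1 coding sequence and the matching 120 bases of Acot2 (bases 124 to 243 of its coding sequence) are given here to show how close they are, with the 13 unlike positions of each in capitals.
Acot1: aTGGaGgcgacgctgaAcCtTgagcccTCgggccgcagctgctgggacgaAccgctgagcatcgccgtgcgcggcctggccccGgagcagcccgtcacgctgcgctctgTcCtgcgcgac
Acot2: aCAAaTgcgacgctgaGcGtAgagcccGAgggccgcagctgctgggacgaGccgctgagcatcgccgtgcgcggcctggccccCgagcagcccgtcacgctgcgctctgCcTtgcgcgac
With both counted as 1 feature, the log2 fold change was -1.10 (adjusted p = 0.49 by edgeR), close to that of Acot2, which holds most of the counts.

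**Figure D5:**
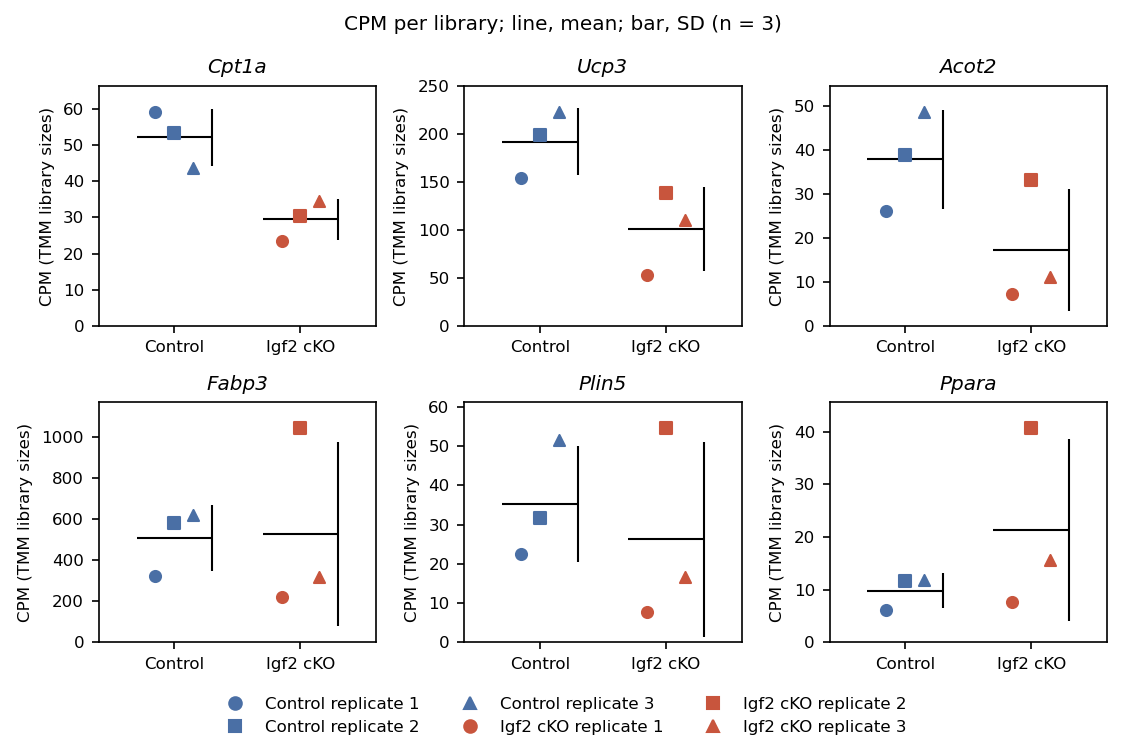
CPM of 6 members in each library, with the group mean (line) and SD (bar, n = 3). All Igf2 cKO values of Cpt1a and Ucp3 lie under the controls, while Igf2 cKO replicate 2 (square) is the highest library for Fabp3, Plin5 and Ppara.

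Lipid droplet coats split in spread. Plin2, which coats droplets in most cells, stayed between 38.8 and 47.2 CPM in all 6 libraries (-0.05 ± 0.10 SE). Plin5, which tethers droplets to mitochondria in oxidative tissue, had 22.6, 31.7 and 51.5 CPM in controls and 7.70, 54.6 and 16.6 CPM in Igf2 cKO libraries, the widest fold range of the members (-0.42 ± 0.60 SE). Adipocyte markers did not share this order, since 14 of 15 (from Cidea at 0.67 to Car3 at 942 FPKM) were highest in Igf2 cKO replicate 3. Of the 15, 11 were lowest in control replicate 3. Their sums were 3140 to 4294 CPM in controls and 4172, 2573 and 6267 CPM in the knockouts. Car3 held most of these sums, at 2946, 2730 and 2459 CPM in controls and 3101, 1723 and 3327 CPM in the knockouts. The fold range of single adipocyte markers over the 6 libraries ran from 1.71 for Fabp4 to 85.5 for Lep.

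The PPAR genes lay above 0. Ppara, the receptor best known for driving oxidation genes in liver, heart and muscle, had 6.06, 11.6 and 11.9 CPM in controls and 7.64, 40.7 and 15.5 CPM in Igf2 cKO libraries. The difference rested on replicate 2, at 1.11 ± 0.54 on the log2 scale (SE, adjusted p = 0.547 by edgeR) with it and 0.24 without it. Ppard, the main PPAR of skeletal muscle, had 34.7, 35.2 and 34.6 CPM in controls and 35.9, 45.1 and 38.3 CPM in Igf2 cKO libraries, groups that did not overlap but lay close (0.19 ± 0.11 SE, adjusted p = 0.614 by edgeR).

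PPAR and its partner RXR bind a direct repeat of AGGTCA with 1 base between the copies. In the RefSeq promoter windows (GRCm38.p6, each running from upstream to just past a start site), 30 of the 34 members had 34 entries, of which 0 held this repeat on either strand, beside 0.0396% of all 32851 entries. With the fourth base of each copy free (AGGNCA), 0 member entries and 0.381% of all entries held it. At shares this low, 0 among 34 entries does not set the members apart from other genes. A single AGGTCA on either strand, a search added after the data had been seen, was in 8 member entries (23.5%) and in 16.3% of all entries. The windows of the 3 members with the lowest log2 fold changes are shown, with AGGTCA or its reverse complement in capitals, in the direction of transcription.
Cpt1a, chr19:3323051-3323350, plus strand: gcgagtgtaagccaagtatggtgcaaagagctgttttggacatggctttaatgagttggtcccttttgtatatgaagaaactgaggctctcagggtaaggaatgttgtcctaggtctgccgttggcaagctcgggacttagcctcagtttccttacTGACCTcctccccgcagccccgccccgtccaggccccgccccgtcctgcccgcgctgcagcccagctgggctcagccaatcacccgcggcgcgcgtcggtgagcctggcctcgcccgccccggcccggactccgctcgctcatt
Ucp3, chr7:100472741-100473040, plus strand: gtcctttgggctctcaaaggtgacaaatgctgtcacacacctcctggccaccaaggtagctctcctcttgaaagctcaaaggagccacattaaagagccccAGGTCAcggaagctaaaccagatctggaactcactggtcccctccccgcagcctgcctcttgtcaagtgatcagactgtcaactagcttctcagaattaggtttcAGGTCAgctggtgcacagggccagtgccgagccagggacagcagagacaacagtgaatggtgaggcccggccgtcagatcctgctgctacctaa
Acot2, chr12:83987611-83987910, plus strand: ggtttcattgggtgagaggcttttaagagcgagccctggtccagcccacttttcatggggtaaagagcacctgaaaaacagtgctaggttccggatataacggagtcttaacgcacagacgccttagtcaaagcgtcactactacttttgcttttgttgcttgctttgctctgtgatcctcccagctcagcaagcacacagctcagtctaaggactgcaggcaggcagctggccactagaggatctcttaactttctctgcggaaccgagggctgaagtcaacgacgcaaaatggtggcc
Cpt1a holds 1 copy, Ucp3 holds 2, and Acot2 holds 0, as does the window of Acot1. A match describes letters in the window and is not a bound site.

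A wider list of 61 genes of fatty acid transport, oxidation and PPAR response (from Fgf21, listed at 0, to Pdk4 at a mean of 233 FPKM) was tested alongside. Of its 57 tested genes 0 were called by edgeR, beside 0.249% of all genes, and 1 by DESeq2, beside its 1.38%. At an unadjusted p under 0.05 there were 1 higher and 2 lower, a count near the background of 5.11% and 4.82% of all genes, and the median log2 fold change was 0.02. Of the 61 genes, 20 were highest in Igf2 cKO replicate 2 and 22 were lowest in replicate 1, beside 20.5% and 18.1% of all genes tested. Ehhadh, the peroxisomal bifunctional enzyme and a known PPAR alpha target, had 15.05, 14.3 and 18.05 CPM in controls and 9.04, 8.23 and 11.1 CPM in Igf2 cKO libraries, without overlap (-0.74 ± 0.16 SE, adjusted p = 0.162 by edgeR and 0.0186 by DESeq2). Acsl3, an acyl-CoA synthetase of lipid droplets, was at 0.34 ± 0.11 (SE, adjusted p = 0.311 by edgeR). Lipe, hormone-sensitive lipase, was at 0.52 ± 0.26 (SE, adjusted p = 0.563 by edgeR). These 3 genes failed the correction in edgeR.

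Of the remaining marker lists, 0 genes were called in each. The 10 macrophage markers (from Itgam at 0.69 to Lyz2 at 142 FPKM) summed to between 354 and 713 CPM in controls and 421 to 595 CPM in Igf2 cKO libraries. The 5 erythroid markers (from Alas2 at 4.03 to Hbb-bs at 263 FPKM) were all lower without overlap, beside 7.67% of all genes, at 449 to 617 CPM in controls and 313 to 358 CPM in Igf2 cKO libraries. Markers lower without overlap also included 3 of 11 endothelial (Kdr, Cldn5, Egfl7), 3 of 11 tested skeletal muscle (Ckm, Myh4, Mylpf) and 1 of 10 macrophage genes (Itgam), the same direction as Cpt1a and Ucp3. Higher without overlap were 2 of 15 adipocyte markers (Thrsp, Pck1) and 1 of 11 mitochondrial content markers (Tomm20), beside 7.83% of all genes. All 15 adipocyte markers had a log2 fold change above 0. The part of any of these markers in the results for Cpt1a and Ucp3 was not tested.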

How the data were processed

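Per the file headers, the authors deposited a raw count and an FPKM per gene and library, and log2 fold changes with p-values and adjusted p-values for 3 comparisons of 1 Igf2 cKO library with 1 control. Whole numbers with a different total per library were found in the count columns. The sources used here name OmicStudio but give no aligner, counting tool, strand setting or build. A further 6 per-sample columns were left unused. Coordinates are as deposited, and 31 of 34 members have the same start, end and length in GENCODE M21 (GRCm38).

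Counts were tested with edgeR 4.0.16 (R 4.3.3): filterByExpr, TMM factors, quasi-likelihood F test, genotype as the single term, all 6 libraries, Benjamini-Hochberg adjustment over 14867 genes. SEs derive from the F statistic. CPM use TMM library sizes. DESeq2 1.42.0 and limma-voom (limma 3.58.1) were alternatives, with other size factors and filters, a replicate block, other thresholds, each library left out and, chosen after seeing the data, a slow fibre score as covariate. The script was tested on simulated data. Exon overlap and coding alignment (Biopython 1.88) used GENCODE M21, and promoters RefSeq.

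Named genes are all 34 members, the 4 other pathway genes with the smallest p (1 of which is not reported here), and each marker list's highest and lowest gene by FPKM. Other markers named were chosen after their values were seen. Members and lists were chosen with earlier results of these data known.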

Additional observations from a re-analysis of the deposited data

How the results depend on the processing

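The count of 37 called genes became 282 without the low-count filter, 203 with DESeq2, 62 at an adjusted p under 0.1, 235 by the series' own rule, 70 with the slow fibre score and 8 to 68 with 1 library left out. For the members the count of 0 became 3 without the filter (Cpt1a, Ucp3, Acot2), 1 with DESeq2 (Cpt1a), 1 by that rule (Acot2) and 0 to 1 with a library left out (Acot2, without Igf2 cKO replicate 2). Other pathway genes went from 0 to 1 without the filter and with DESeq2 (Ehhadh) and to 0 to 1 with a library left out. The cause was not tested. Libraries of the same replicate number gave correlations of deviations of 0.163, 0.0581 and -0.0425. Control replicates 1 and 2 correlated best with the Igf2 cKO library of their own number, and control replicate 3 did not. With 3 libraries per group this cannot show whether libraries of the same number were paired. With the replicate numbers as a block 35 genes (0.235%) and 0 members were called.

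Of the 34 members, 13 kept their direction in every alternative run and 21 did not, none of which was called in any. With 1 library left out the log2 fold change ran from -0.57 to 0.20 for Acaa2, -0.49 to 0.23 for Acadl, -0.23 to 0.22 for Acadm, -0.18 to 0.15 for Acads, -0.35 to 0.17 for Acadvl, -0.35 to 0.12 for Cd36, -0.32 to 0.082 for Cpt2, -0.16 to 0.11 for Crat, -0.28 to 0.14 for Decr1, -0.28 to 0.28 for Ech1, -0.19 to 0.21 for Eci1, -0.30 to 0.16 for Etfa, -0.55 to 0.0596 for Etfdh, -0.91 to 0.42 for Fabp3, -0.27 to 0.17 for Hadh, -0.36 to 0.19 for Hadha, -0.38 to 0.27 for Hadhb, -0.11 to 0.026 for Plin2, -1.54 to 0.016 for Plin5, -0.18 to 0.0049 for Slc22a5 and -0.30 to 0.019 for Ucp2. Hadh was at -0.00012 with RLE size factors, -0.017 with upper quartile factors, -0.0042 without the filter and -0.00089 with a CPM minimum of 1, and Acadvl at 0.0011 with DESeq2. In limma-voom Fabp3, Hadhb and Hadh were at -0.22, -0.0203 and -0.0204, and under the block at -0.23, -0.023 and -0.0205. With the slow fibre score Cd36 was at 0.0096, Cpt2 0.037, Crat 0.071, Acadvl 0.16, Acadl 0.15, Hadha 0.14, Acaa2 0.13, Decr1 0.11, Etfa 0.14, Etfdh 0.0081 and Ucp2 0.0087.

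With 3 libraries per group, intervals of the members were wide, and members with few counts (Cpt1b and Acot1, under 6 CPM) carry counting error as well. None of the size factors moved the median of all genes by over 0.1.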

Other observations

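Among genes of the wider fatty acid list, a few had large differences between single libraries and were named after their values were seen. Pdk4, the kinase that shuts off pyruvate dehydrogenase when fatty acids are burned, had 1030.3, 1031 and 1327 CPM in the controls and 116, 1161 and 274 CPM in the knockouts. On the log2 scale it differed by -1.13 ± 0.68 (SE, adjusted p = 0.637 by edgeR), and without Igf2 cKO replicate 2 it was -2.53 (adjusted p = 0.0214). Angptl4, a secreted inhibitor of lipoprotein lipase, had 12.3, 11.9 and 9.48 CPM in controls and 2.40, 9.90 and 22.5 CPM in Igf2 cKO libraries, with both extremes in Igf2 cKO muscle. Acaca, which makes malonyl-CoA for fatty acid synthesis, was at 77.5 CPM in Igf2 cKO replicate 3 and between 22.9 and 31.7 CPM in the other libraries. That library also had the highest value of 14 of 15 adipocyte markers, and their part in the Acaca value was not tested. Bdh1, which oxidises ketone bodies, had 18.5, 40.8 and 55.3 CPM in controls and 20.5, 116 and 30.4 CPM in Igf2 cKO libraries, the same order of the Igf2 cKO libraries as most members.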
